A study of Homo sapiens with 9 samples.

Results

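Transcripts of the EGFR ligands and of the Sprouty-type brakes on ERK signaling were followed in HT-29 cells, a human colorectal adenocarcinoma line that carries an activating BRAF allele. The 10 genes were chosen by name, with earlier results of these data known. They comprised the ligands AREG, EREG, HBEGF and TGFA, the receptor EGFR, the receptor inhibitor ERRFI1, and the inhibitors SPRY2, SPRY4, SPRED1 and SPRED2. They were 10 of the 62710 gene identifiers in the count table, and all 10 passed the filter on low counts, as did 17412 genes in all. RNA-sequencing of poly(A)-enriched RNA had been done on 9 libraries of wild-type HT-29 cells in 3 groups of 3. The groups were non-stimulated cells, cells stimulated with 500 ng/mL flagellin (Flagellin-ST, a TLR5 ligand), and cells stimulated with 500 ng/mL ADP-heptose (ADP-L-heptose, a bacterial sugar nucleotide sensed by the kinase ALPK1), all harvested at 2.5 h. The study used flagellin as a known NF-κB-inducing bacterial product beside ADP-heptose, and describes its replicates as independent experiments on this single line.

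EGFR is a receptor tyrosine kinase of the intestinal epithelium. Its ligands are made as membrane-anchored precursors that are cut free by ADAM proteases, and binding of a ligand sets off the RAS, RAF, MEK and ERK cascade. ERK in turn induces transcripts of its own inhibitors: ERRFI1 (MIG6) binds and blocks the EGFR kinase, while Sprouty and Spred proteins act on the path from the receptor to RAF. In cells with an activated BRAF the cascade also runs below the receptor.

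AREG and EREG are neighbours on chromosome 4, with 56382 bases and 1 annotated gene between the end of EREG and the start of AREG, both on the plus strand of GRCh38. Their upstream sequences are shown because these 2 ligand transcripts had the highest log2 fold changes of the 4 ligands with ADP-heptose. The 250 bases before the RefSeq start site (GRCh38.p14, plus strand) lie at chr4:74444886-74445135 for AREG and at chr4:74364895-74365144 for EREG. In the lines below, capitals mark a cAMP response element (TGACGTCA) and a TATA box (TATAAA).
AREG: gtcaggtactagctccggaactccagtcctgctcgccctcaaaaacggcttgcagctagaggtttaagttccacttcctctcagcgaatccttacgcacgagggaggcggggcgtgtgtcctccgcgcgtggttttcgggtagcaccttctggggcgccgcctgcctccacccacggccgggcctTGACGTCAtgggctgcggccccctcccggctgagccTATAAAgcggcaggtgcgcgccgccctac
EREG: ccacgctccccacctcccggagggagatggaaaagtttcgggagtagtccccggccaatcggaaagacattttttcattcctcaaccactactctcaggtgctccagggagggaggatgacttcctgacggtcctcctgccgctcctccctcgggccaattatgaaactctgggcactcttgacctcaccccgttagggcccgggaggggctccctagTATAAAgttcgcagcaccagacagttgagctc
The cAMP response element of AREG runs from base -65 to -58 before the start, and TATAAA from -29 to -24. EREG has TATAAA from -32 to -27, and TGACGTCA was not in its window. Both strands were searched in windows of 300 bases, 250 before and 50 after the start. TGACGTCA was present in 1.85% of the 35116 RefSeq promoter windows and TATAAA in 11.5%. Neither promoter held the AP-1 string TGANTCA (7.71% of windows), the κB consensus (11.3%) or the CArG box (1.29%). Among the windows of the other members, 1 of 2 for TGFA held a κB consensus from -219 to -210. For EGFR, 1 of 2 held TGANTCA from -232 and -136 and TATAAA from -146 and -36. For SPRED2, 1 of 2 held TGANTCA from -6 and 35 and TATAAA from -31. These EGFR and SPRED2 windows belong to starts inside the genes, at chr7:55109589-55109888 and chr2:65366729-65367028. The annotated genes begin at 55019021 for EGFR (plus strand) and at 65432637 for SPRED2 (minus strand). Their other windows held none of the 5 motifs. The windows of HBEGF, ERRFI1, SPRY2, SPRY4 and SPRED1 held none of the 5 motifs. These matches describe letters in a window and not binding.

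Depth was 35040844 to 37537705 counts in the non-stimulated libraries, 30770448 to 38304035 with flagellin and 50054773 to 58272772 with ADP-heptose. ADP-heptose replicate 3 stood apart: the SD of log2 differences between libraries was 0.378 and 0.383 against replicates 1 and 2 of its group, which differed from each other by 0.135, and it was 0.167 to 0.196 between replicates of the other groups. The epithelial label was checked with 10 colon epithelial markers, 9 of which were expressed highly enough to be tested, with a summed level of 8018 to 8380 CPM (counts scaled to a common library size) in non-stimulated, 8221 to 8540 in flagellin and 8832 to 12316 in ADP-heptose libraries. Most of this sum came from KRT8 and KRT18, with means of 168643 and 63408 normalized counts without stimulation. EPCAM followed at 38449. KRT8 and KRT18 were uneven among the ADP-heptose libraries, at 208713 ± 47029 and 86644 ± 26914 (SD, n = 3), and were not called. KRT20 was the 1 of the 9 that was called with ADP-heptose (log2 0.40, edgeR adjusted p = 0.000941), and 6 of the 9 had a log2 fold change above 0. CDX2 went the other way without being called (log2 -0.95, edgeR adjusted p = 0.19). Its mean was 45.8 normalized counts without stimulation and 24.0 with ADP-heptose. CDX1, a colonic transcription factor, was at 0 in all non-stimulated and flagellin libraries and had 6, 4 and 12 counts with ADP-heptose. The 5 leukocyte markers summed to 4 to 18 raw counts in the 6 libraries without ADP-heptose and to 27 to 65 with it, and CD3E was at 0 throughout. ITGAM, the 1 that was tested, had 0, 0 and 6 counts without stimulation, 2, 2 and 8 with flagellin and 59, 42 and 23 with ADP-heptose, and was called higher with ADP-heptose (edgeR adjusted p = 0.0121). The 3 endothelial markers summed to 0 to 6 counts, and the 4 fibroblast markers, nearly all COL1A1, to 12.5 to 14.7 CPM in non-stimulated, 12.6 to 16.1 in flagellin and 16.9 to 19.1 in ADP-heptose libraries, with COL1A2 at 0. COL1A1 was called higher with ADP-heptose (log2 0.41, edgeR adjusted p = 0.0311). The part of these markers in the results was not tested. In bulk RNA, fewer cells with a transcript and less of it per cell cannot be told apart.

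ADP-heptose raised 5 of the 10 transcripts and lowered 1 against non-stimulated cells. AREG, EREG, HBEGF, EGFR and ERRFI1 were higher, SPRY2 was lower, and TGFA, SPRY4, SPRED1 and SPRED2 were not called. Calls were made at an adjusted p under 0.05 in edgeR's quasi-likelihood test, fitted on all 9 libraries and adjusted (Benjamini-Hochberg) over all 17412 genes, of which 7.48% were higher and 4.42% lower in the same comparison. Over all genes 1302 were higher and 770 lower, and with library totals in place of edgeR's TMM scaling 917 and 1886, while the same 5 and 1 of the 10 transcripts were called. A change of at least 2-fold was reached by 3 of the 10 (AREG, EREG, ERRFI1), against 2.89% of all genes called higher with this limit. The 3 ADP-heptose libraries lay above the 3 non-stimulated ones for 6 of the 10 and below for 1, against 15.4% and 14.7% of all genes. The median log2 fold change was 0.53 over the 10 transcripts and 0.0087 over all genes. With flagellin, none of the 10 was called in the edgeR fit of all 9 libraries, against 0.368% of all genes called higher and 0.0115% lower. None had an unadjusted p under 0.05 (3.78% of all genes had), and the DESeq2 test also called none. EGFR was called higher with flagellin in 2 of 17 alternatives. These were the edgeR fits without ADP-heptose replicate 3 and with the 6 libraries of that comparison alone. TGFA and EGFR were the 2 whose flagellin libraries lay above all non-stimulated ones and none lay below, against 7.66% and 5.19% of all genes. The median over the 10 was then 0.09. The libraries of each transcript are shown in the plot of normalized counts, that is, counts scaled to a common library size.

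**Figure D1:**
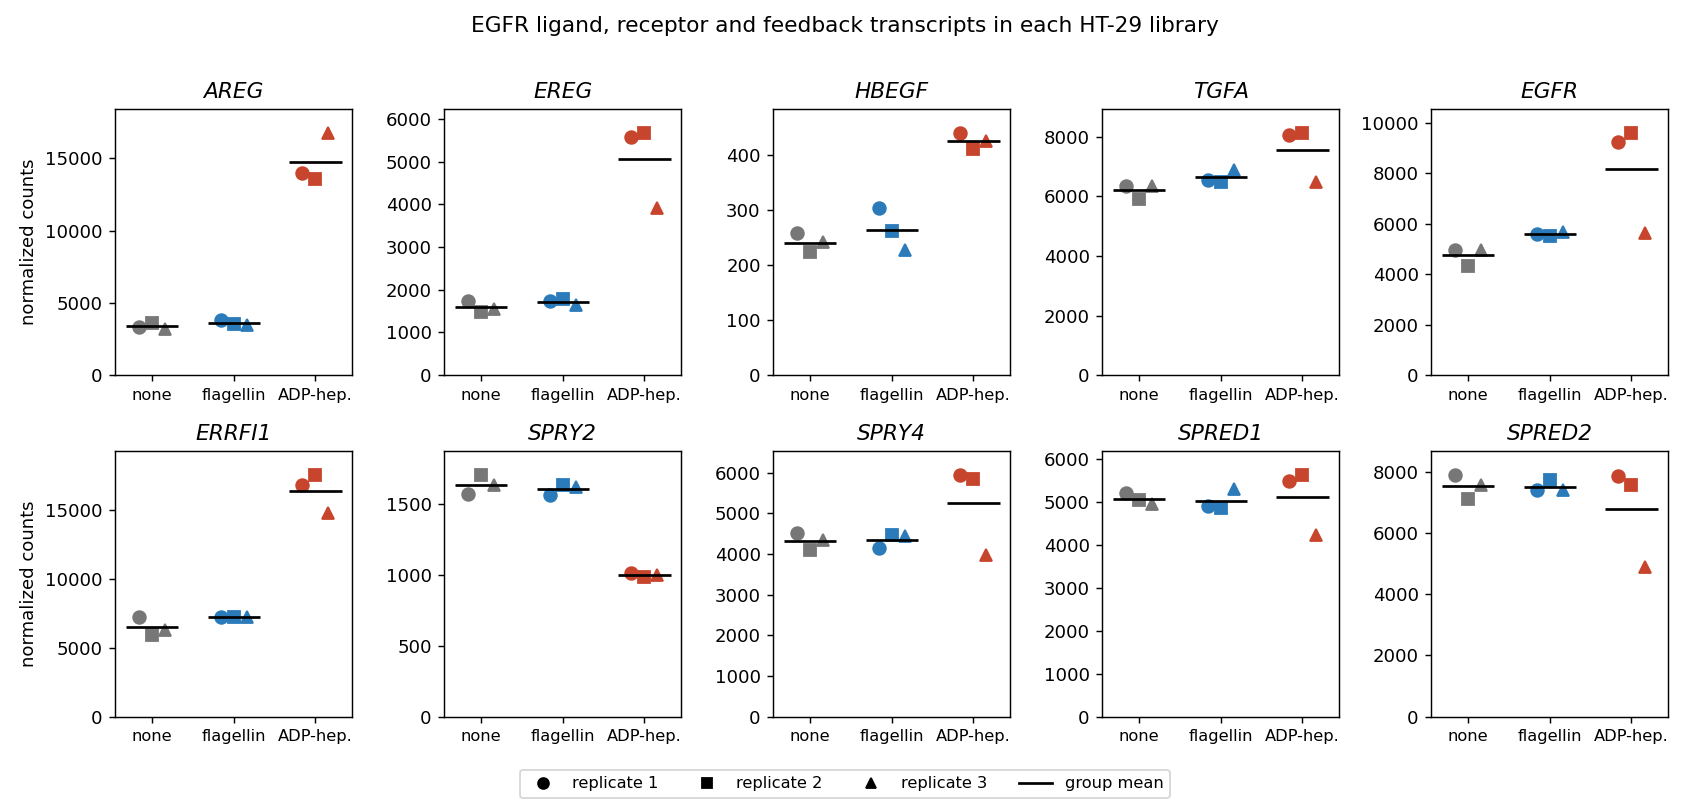
Normalized counts (y axis, linear, from 0, separate scale per gene) of the 10 transcripts in each of the 9 libraries, grouped on the x axis as non-stimulated (none), flagellin and ADP-heptose (ADP-hep.), with the symbol giving the replicate and the black line the group mean. The 3 ADP-heptose libraries lie above all others for AREG, EREG, HBEGF and ERRFI1 and below all others for SPRY2, and replicate 3 is the lowest of the ADP-heptose group for 7 of the 10 transcripts.

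Amphiregulin (AREG, ENSG00000109321, chromosome 4, 74445134 to 74455009) is a low-affinity EGFR ligand and a well-known product of stimulated epithelium. Its normalized counts were 3353, 3629.6 and 3199 in non-stimulated libraries, 3846, 3512 and 3468 with flagellin, and 13948, 13592 and 16727 with ADP-heptose. The ADP-heptose libraries did not overlap with the other 6. The log2 fold change was 2.12 ± 0.09 (SE, n = 3 per group), or 4.35-fold, with a 95% interval of 1.92 to 2.32 and an edgeR adjusted p of 1.2e-08, the lowest adjusted p of the 10 transcripts. Leaving out ADP-heptose replicate 3, the highest AREG library, did not end the call.

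Epiregulin (EREG, ENSG00000124882, chromosome 4, 74365143 to 74388751) binds both EGFR and ERBB4. It stood at 1729, 1489 and 1545 normalized counts without stimulation, 1743, 1772 and 1642 with flagellin, and 5589, 5666 and 3919 with ADP-heptose. All 3 ADP-heptose libraries were above the rest, and replicate 3 was lower than the other two in its group, the opposite of AREG. The rise was 1.67 ± 0.13 on the log2 scale (95% interval 1.39 to 1.95), or 3.19-fold, with an edgeR adjusted p of 2.09e-06.

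Heparin-binding EGF-like growth factor (HBEGF, ENSG00000113070, chromosome 5, 140332843 to 140346631, minus strand) is an EGFR and ERBB4 ligand and an immediate-early transcript. Its level was the lowest of the 10, per length as well, with 258, 223 and 241 normalized counts in non-stimulated, 303, 261 and 227 in flagellin, and 439, 409.98 and 424 in ADP-heptose libraries. The ADP-heptose libraries were close together and above all others, while the flagellin and non-stimulated libraries overlapped. HBEGF rose by 0.82 ± 0.12 (log2, 95% interval 0.55 to 1.08), or 1.76-fold (edgeR adjusted p = 0.000674).

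Transforming growth factor alpha (TGFA, ENSG00000163235, chromosome 2, 70447280 to 70554193, minus strand) is the classical high-affinity EGFR ligand of gut epithelium. Its normalized counts were 6351, 5931 and 6342 without stimulation, 6544, 6489 and 6882 with flagellin, and 8048, 8120.3 and 6482 with ADP-heptose. The ADP-heptose libraries were all above the non-stimulated ones, but replicate 3 lay below the 3 flagellin libraries. The log2 difference was 0.28 ± 0.09 (95% interval 0.09 to 0.47), with an edgeR adjusted p of 0.0556. Without ADP-heptose replicate 3 it was 0.39 with an edgeR adjusted p of 8.62e-08, and it was 0.15 (adjusted p = 0.346) with library totals in place of TMM. TGFA passed the threshold in 3 of 17 alternatives, so its call depended on this library and on the test and filter.

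The ligands were compared with each other on a scale per length (RPKM, scaled CPM divided by kilobases of annotated exons). The length counts all annotated exons of a gene, whichever of them the cells used, so levels and shares between genes are approximate. In non-stimulated cells AREG stood at 51.1 ± 3.29 RPKM (SD, n = 3) and TGFA at 31.0 ± 1.20, and these 2 made up most of the summed level of 7 EGFR ligands. EREG was at 6.89 ± 0.545 RPKM, HBEGF at 1.98 ± 0.142 and betacellulin (BTC) at 1.51 ± 0.1503, while EGF and epigen (EPGN) were at 0.175 and 0.0295. The summed level was 93.7, 94.2 and 90.3 RPKM in the non-stimulated libraries, 102, 96.2 and 97.2 with flagellin and 280.2, 275 and 306 with ADP-heptose. AREG's share of it was 55.1% ± 2.58 in non-stimulated and 55.1% ± 1.45 in flagellin-stimulated cells, and 77.2% ± 4.36 with ADP-heptose. The share of TGFA went from 33.5% ± 1.84 to 13.2% ± 2.31, with a level of 37.8 ± 4.63 RPKM after ADP-heptose. EREG's mean share was 7.43% ± 0.572 without stimulation and 7.72% ± 1.88 with ADP-heptose. Its ADP-heptose libraries were split, at 8.66% and 8.94% in replicates 1 and 2 and 5.55% in replicate 3, against 6.86% to 8.01% without stimulation. Replicate 3 also had the highest AREG share (82.2%) and the lowest TGFA share (10.6%) of its group. Its levels went with exon length, as given below. In exact two-sided permutation tests of ADP-heptose against non-stimulated libraries, p was 0.1 for the shares of AREG and TGFA (0.15 adjusted over the 3 shares) and 0.9 for that of EREG, where 0.1 is the smallest p that 3 against 3 libraries allow.

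**Figure D2:**
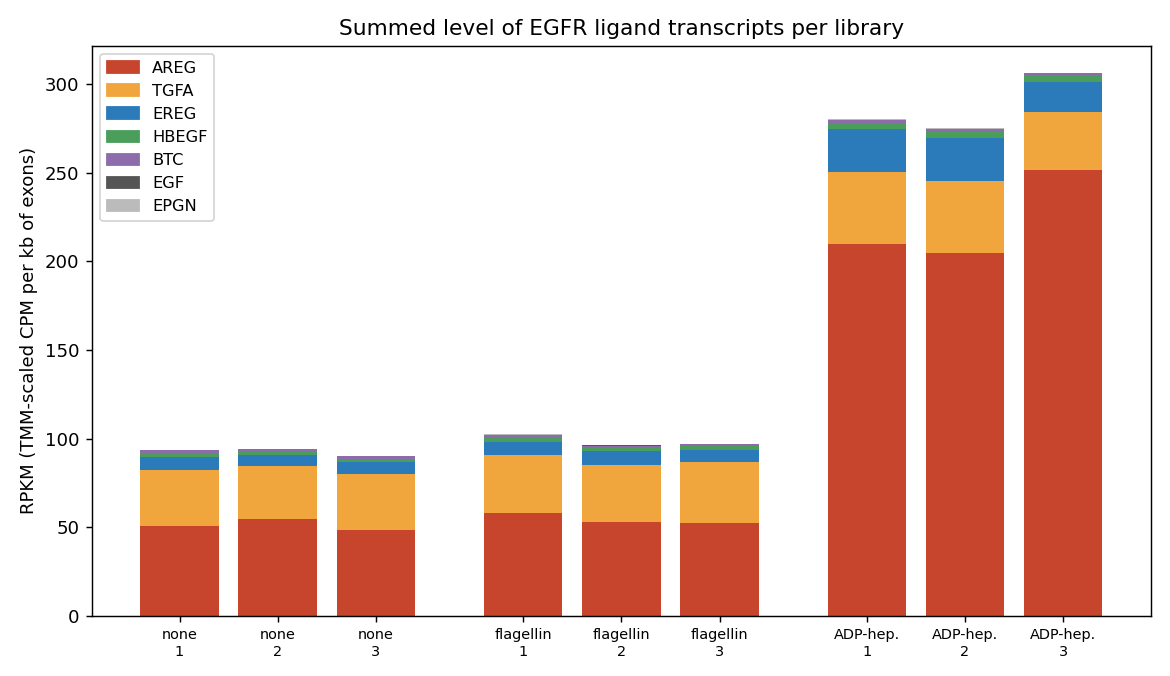
Summed level of 7 EGFR ligand transcripts (y axis, RPKM, linear, from 0) in each library (x axis: none, flagellin or ADP-heptose, with the replicate number), stacked by ligand. The 3 ADP-heptose bars reach 275 to 306 RPKM against 90.3 to 102 in the other 6 libraries, and AREG makes up 74.4% to 82.2% of them.

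The receptor EGFR (ENSG00000146648, chromosome 7, 55019021 to 55211628) was higher with ADP-heptose. Normalized counts were 4959, 4333 and 4941 in non-stimulated, 5595, 5496 and 5649 in flagellin, and 9238, 9574.5 and 5623 in ADP-heptose libraries. Replicate 3 of ADP-heptose was within the range of the flagellin libraries, while the other two were above all of them. The log2 fold change against non-stimulated cells was 0.78 ± 0.16 (95% interval 0.44 to 1.12), or 1.72-fold, with an edgeR adjusted p of 0.00584. Against flagellin EGFR was 0.55 higher (log2, 95% interval 0.21 to 0.89, adjusted p = 0.0531), and without replicate 3 this became 0.76 (adjusted p = 1.29e-13). The 3 flagellin libraries were also above the 3 non-stimulated ones, by 0.23 on the log2 scale (95% interval -0.11 to 0.57, edgeR adjusted p = 1), and this difference was called without ADP-heptose replicate 3 (adjusted p = 0.00563) and with the 6 libraries of that comparison alone (0.0118), in each case at a log2 difference of 0.23. Exons of EGFR share 186 bases with the antisense gene EGFR-AS1, which had 2 to 37 counts per library, and whether the counting used strand is not stated.

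ERRFI1 (ENSG00000116285, chromosome 1, 8004404 to 8026308, minus strand), which encodes the EGFR kinase inhibitor MIG6, was the member with the second lowest adjusted p. It had 7252, 5952 and 6266 normalized counts without stimulation, 7200.2, 7200.5 and 7213 with flagellin, and 16836, 17541 and 14783 with ADP-heptose. The ADP-heptose libraries were well above the other 6, and the flagellin libraries lay within the non-stimulated range. ERRFI1 rose by 1.34 ± 0.09 (log2, 95% interval 1.14 to 1.53), or 2.53-fold (edgeR adjusted p = 5.94e-07). Its exons share 155 bases with the antisense gene AL034417.4, which had 6 to 66 counts per library.

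Of the 2 Sprouty transcripts, SPRY2 fell and SPRY4 was not called. SPRY2 (ENSG00000136158, chromosome 13, 80335976 to 80340951, minus strand) encodes an ERK-induced inhibitor of receptor tyrosine kinase signaling, and had 1564, 1702 and 1633 normalized counts in non-stimulated, 1561, 1629 and 1619 in flagellin, and 1014, 986 and 999 in ADP-heptose libraries. The ADP-heptose libraries were below all others and close together, with an SD of 14.2 against 36.6 with flagellin and 69.2 without stimulation. SPRY2 fell by 0.71 on the log2 scale (SE 0.07, 95% interval -0.86 to -0.56), that is, it was 1.63-fold lower, with an edgeR adjusted p of 1.98e-05. SPRY4 (ENSG00000187678, chromosome 5, 142310427 to 142326455, minus strand), a related inhibitor, had 4515, 4099.7 and 4349 normalized counts without stimulation, 4145, 4470.4 and 4448 with flagellin, and 5946, 5848 and 3974 with ADP-heptose. Replicates 1 and 2 of ADP-heptose were above and replicate 3 was below all the others, so the groups overlapped. The log2 difference of SPRY4 was 0.28 ± 0.13 (95% interval 0.01 to 0.56, edgeR adjusted p = 0.188), and 0.45 without replicate 3 (adjusted p = 1.97e-08) but 0.16 with library totals (0.503).

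Neither Spred transcript was called with ADP-heptose. SPRED1 (ENSG00000166068, chromosome 15, 38252326 to 38357249), which brings neurofibromin to the membrane to restrain RAS, had 5209.8, 5061 and 4952 normalized counts in non-stimulated, 4911, 4854 and 5298 in flagellin, and 5488, 5637 and 4230.1 in ADP-heptose libraries, and the 3 groups overlapped. Its log2 difference was 0.01 (95% interval -0.20 to 0.23, edgeR adjusted p = 0.948). SPRED2 (ENSG00000198369, chromosome 2, 65310851 to 65432637, minus strand), its close relative, had 7901, 7098 and 7579.9 normalized counts without stimulation, 7413, 7723 and 7397 with flagellin, and 7846, 7572 and 4902 with ADP-heptose. Only ADP-heptose replicate 3 lay outside the range of the non-stimulated libraries. The log2 difference of SPRED2 was -0.15 (95% interval -0.45 to 0.15, edgeR adjusted p = 0.524), and 0.04 without replicate 3 (adjusted p = 0.676).

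**Figure D3:**
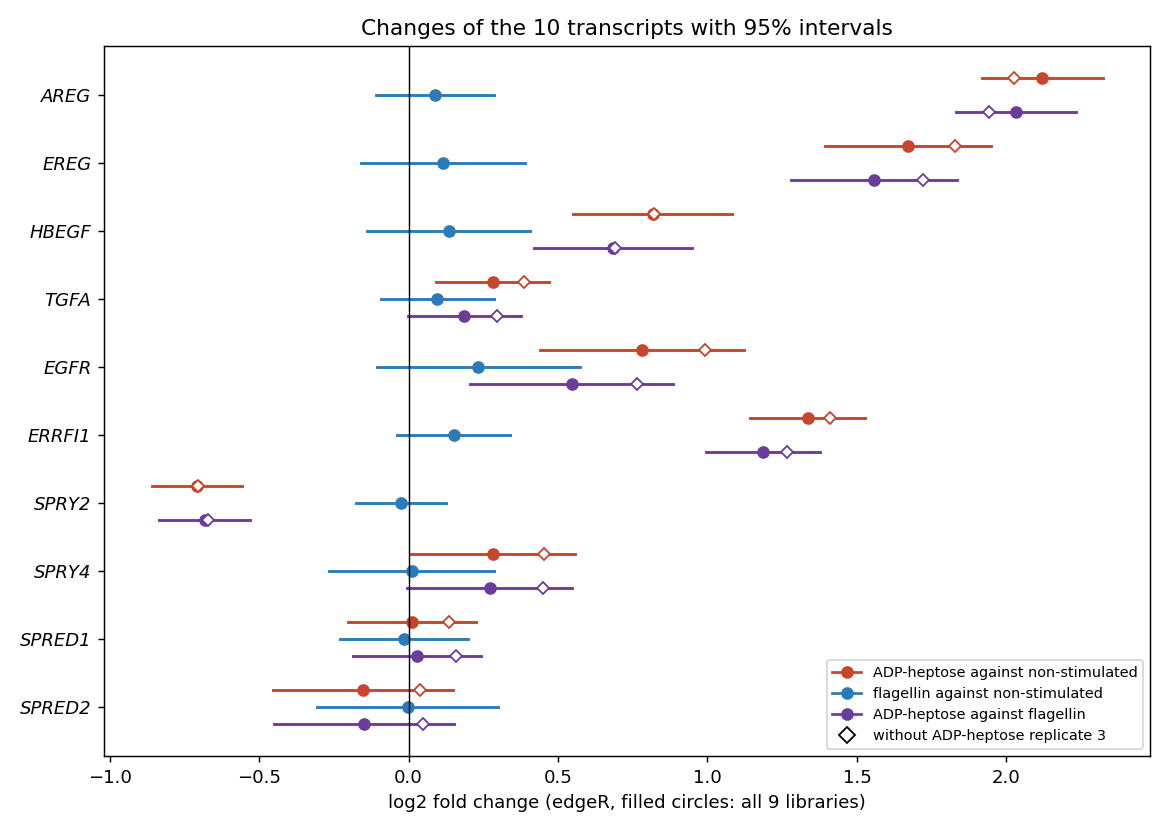
Log2 fold changes (x axis) of the 10 transcripts (y axis) in the 3 comparisons, with circles from the edgeR fit of all 9 libraries, bars as 95% intervals, and open diamonds as the value without ADP-heptose replicate 3. All 10 flagellin intervals include 0, and in both ADP-heptose comparisons the diamonds of EREG, TGFA, EGFR, ERRFI1, SPRY4, SPRED1 and SPRED2 lie 0.073 to 0.219 to the right of their circles, that of AREG lies to the left, and those of HBEGF and SPRY2 differ by at most 0.0115.

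The level in ADP-heptose replicate 3 relative to the mean of replicates 1 and 2 differed between the transcripts and went with their length. The ratio was 1.21 for AREG, which has 1648 bases of annotated exons, 0.9996 for HBEGF and 0.9992 for SPRY2 with 3018 and 3038 bases, and 0.598 for EGFR with 12521 bases. It was 0.860 for ERRFI1, 0.802 for TGFA, 0.760 for SPRED1, 0.696 for EREG, 0.674 for SPRY4 and 0.636 for SPRED2. Spearman's rho between exon length and this ratio was -0.891 over the 10 transcripts and -0.51 over 12008 expressed genes, all from these same 3 libraries and given as a description. Replicates 1 and 2 differed by much less, with ratios of 0.960 to 1.07. With offsets for exon length in the edgeR fit, added after this was seen, the same 5 transcripts were called higher and SPRY2 lower: AREG at 1.96, EREG at 1.66, HBEGF at 0.72, EGFR at 0.81, ERRFI1 at 1.29 and SPRY2 at -0.80 on the log2 scale. TGFA and SPRY4 then had adjusted p of 0.0504 and 0.0908. The cause of the length trend was not tested.

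**Figure D4:**
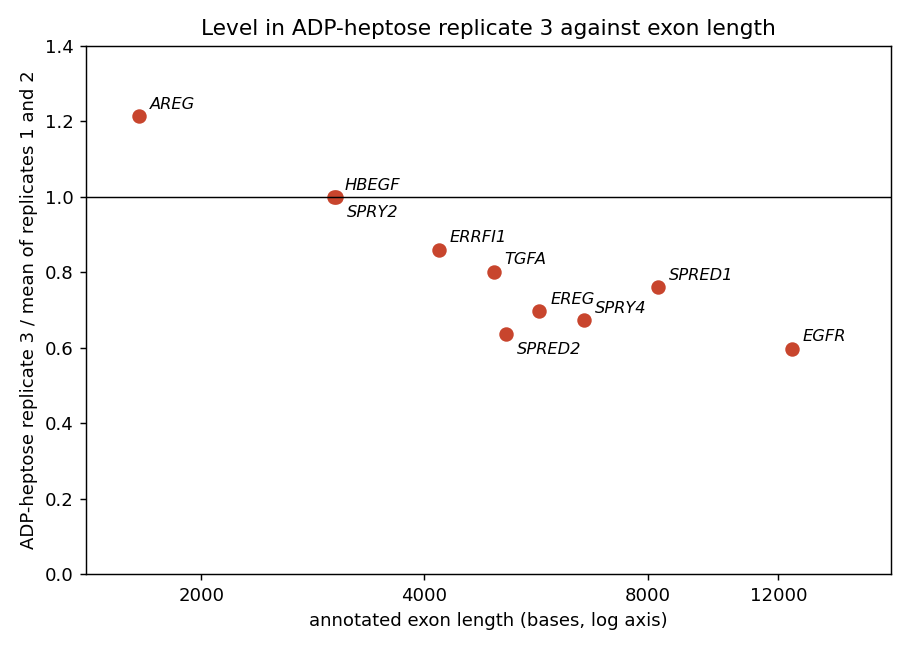
Ratio of the normalized count in ADP-heptose replicate 3 to the mean of replicates 1 and 2 (y axis, linear, from 0) against annotated exon length in bases (x axis, log scale) for the 10 transcripts. AREG, the shortest, is at 1.21 and EGFR, the longest, at 0.598.

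ADP-heptose was also compared directly with flagellin, at the same dose by mass and the same time. AREG was 2.03 higher on the log2 scale (edgeR adjusted p = 2.76e-08), EREG 1.56 (5.68e-06), ERRFI1 1.19 (2.38e-06) and HBEGF 0.68 (0.00323), and SPRY2 was 0.68 lower (log2 fold change -0.68, 3.87e-05). These were 4 transcripts higher and 1 lower, against 5.4% and 2.76% of all genes, and AREG, EREG and ERRFI1 changed by at least 2-fold, against 2.06% of all genes called higher with this limit. Libraries lay apart for these 5 only, 4 above and 1 below, against 14.2% and 12.8% of all genes. EGFR missed the threshold as given above, and TGFA (0.19, adjusted p = 0.244), SPRY4 (0.27, 0.242), SPRED1 (0.03, 0.9) and SPRED2 (-0.15, 0.581) were not called. Without ADP-heptose replicate 3, 8 of the 10 were called higher, the additional ones being TGFA, EGFR, SPRY4 and SPRED1, against 10% of the 17966 genes tested in that fit. The flagellin and ADP-heptose comparisons with non-stimulated cells use the same 3 control libraries, so their values stand side by side here and are not independent. Flagellin differences were 0.09 for AREG (95% interval -0.11 to 0.29), 0.12 for EREG (-0.16 to 0.39), 0.13 for HBEGF (-0.14 to 0.41), 0.15 for ERRFI1 (-0.04 to 0.34) and -0.03 for SPRY2 (-0.18 to 0.12).

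On the scale per length, the order of levels in non-stimulated cells was AREG, ERRFI1 (38.5 ± 4.02 RPKM), SPRED2 (36.2 ± 1.95), TGFA, SPRY4 (16.3 ± 0.789), SPRED1 (15.2 ± 0.389), SPRY2 (13.3 ± 0.565), EGFR (9.40 ± 0.706), EREG and HBEGF. The ranges of ERRFI1 and SPRED2 overlapped between libraries, as did those of SPRY4 and SPRED1, and these neighbours were not apart beyond their spread. The order also depends on the length used, which is that of all annotated exons (12521 bases for EGFR, 3038 for SPRY2). The transcripts expressed may be shorter, so ranks between genes are approximate. With ADP-heptose AREG reached 222 ± 25.9 RPKM and ERRFI1 97.1 ± 8.50, followed by TGFA and SPRED2 (32.6 ± 7.83), whose ranges overlapped. EREG at 22.0 ± 4.29, SPRY4 at 19.9 ± 4.2, EGFR at 16.1 ± 4.34 and SPRED1 at 15.4 ± 2.32 RPKM followed, each overlapping the next in this order. SPRY2 at 8.16 ± 0.116 and HBEGF at 3.49 ± 0.120 RPKM came last and were apart from each other.

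The other genes of the pathway were described with lists of 50 genes, 45 of which passed the filter. The lists were chosen with earlier results of these data known. With ADP-heptose 8 were higher and 5 lower (median log2 fold change -0.006), against 7.48% and 4.42% of all genes, and with flagellin 1 was higher and none lower, against 0.368% and 0.0115%. Among other ligands of the ERBB family, 3 of 7 were tested and none was called: BTC had 171 ± 17.1 normalized counts (SD, n = 3) in non-stimulated and 180 ± 19.5 in ADP-heptose libraries (log2 0.07, edgeR adjusted p = 0.84), and EGF had 43.1 ± 4.93 and 29.6 ± 10.2 (log2 -0.54, 0.348). ERBB3, the kinase-impaired partner receptor, was 1.31-fold lower with ADP-heptose (log2 fold change -0.39, edgeR adjusted p = 0.00315), ERBB2 was at -0.04 (adjusted p = 0.74), and ERBB4 had 0 to 2 counts per library. ERBB3 thus moved opposite to EGFR. Of 4 genes for shedding of ligands, RHBDF2, an iRhom cofactor of ADAM17, was called higher (log2 0.43, adjusted p = 0.001). This was 1 call in a list of 4, against 7.48% of all genes called higher, and describes RHBDF2 alone. NRAS was the 1 of 16 cascade genes that was called (log2 0.34, adjusted p = 0.0198), which is no larger a share than the 7.48% of all genes called higher. RHBDF2 and NRAS changed by less than 1.5-fold and are named because each was the only call in its list.

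SPRY1, another Sprouty family member, fell as well. It was the 1 gene called among 8 other brakes, against 7.48% of all genes called higher and 4.42% lower. A single call in so short a list describes SPRY1 and not the brakes as a group. SPRY1 had a mean of 600 ± 57.3 normalized counts (SD, n = 3) in non-stimulated, 567 ± 26.3 in flagellin and 253 ± 38.3 in ADP-heptose cells. Its log2 fold change was -1.24, and it was thus 2.36-fold lower (edgeR adjusted p = 2.37e-05). Of 12 transcripts known as outputs of ERK, 6 were higher and 3 lower with ADP-heptose, against 7.48% and 4.42% of all genes. This list too was chosen with earlier results of these data known, so its counts are a description. Whether ERK drove these changes was not tested. The higher ones were IER3, an early-response survival gene, at 3.50 (log2, adjusted p = 9.5e-12), FOSL1, an AP-1 subunit, at 2.64 (2.03e-10), DUSP5, a nuclear ERK phosphatase, at 2.42 (8.66e-10), EGR1, an immediate-early transcription factor, at 1.95 (4.86e-08), EPHA2, a receptor tyrosine kinase, at 1.57 (1.55e-07), and PHLDA1 at 0.89 (2.06e-06). The lower ones were EPHA4 at -1.18 (0.0112), the cytoplasmic ERK phosphatase DUSP6 at -0.34 (0.0151) and the ETS factor ETV5 at -0.30 (0.0127). EPHA4 was low throughout, with 55 to 92 raw counts in non-stimulated and 36 to 50 in ADP-heptose libraries. DUSP6 and ETV5 were below a change of 1.5-fold and are named to complete the 3. Against flagellin DUSP6 was not called (-0.28, adjusted p = 0.062). The genes of the list not called with ADP-heptose were DUSP4, another ERK phosphatase (0.06, adjusted p = 0.655), CCND1 (-0.02, 0.874) and ETV4 (0.06, 0.698). They are named after their values were seen. IER3 was also the 1 gene called with flagellin, at 0.38 (adjusted p = 0.0453), a call that was lost with library totals, with the replicate number as a block (adjusted p = 0.174), with exon length offsets, and when any library except ADP-heptose replicate 3 was left out.

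**Figure D5:**
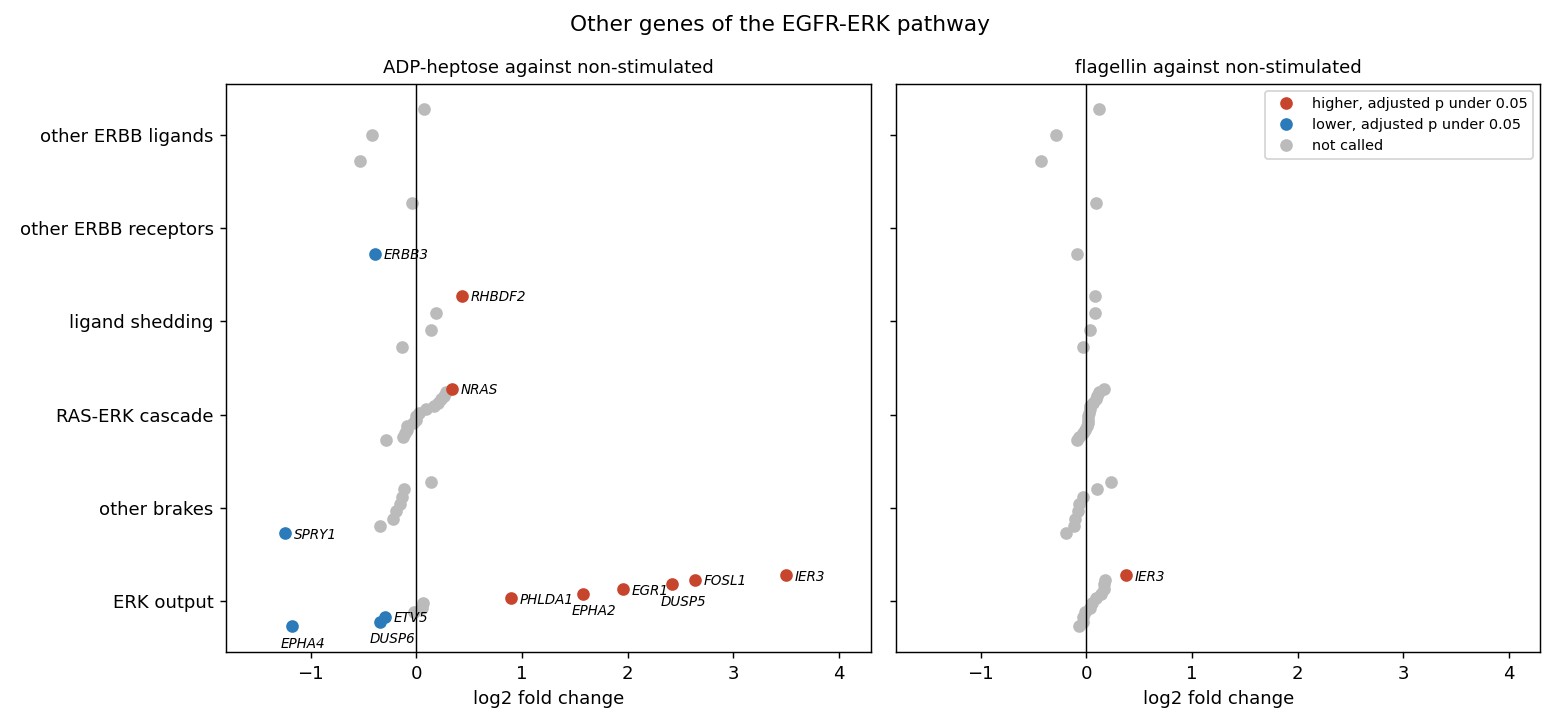
Log2 fold changes (x axis) of the 45 tested pathway genes, grouped by list (y axis) and sorted within each list, with ADP-heptose (left) and flagellin (right) against non-stimulated cells. Red and blue points were called higher or lower at an adjusted p under 0.05 and are named, and grey points were not called: 8 and 5 genes are colored on the left and 1 on the right.

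For AREG and ERRFI1, the 2 members with the lowest adjusted p, the genes with the most similar profile were sought among 12168 expressed genes by Pearson's r of log2 CPM over the 9 libraries. AREG was followed most closely by DUSP5 (r = 0.9985), JUNB (0.9979) and GDF15 (0.9973), and ERRFI1 by ANKLE2 (0.9976), ENSG00000290927 (0.9969) and EGR1 (0.9963). Among the members themselves, the highest values were 0.993 for EREG and ERRFI1 and 0.988 for TGFA and EGFR. SPRY2 ran opposite to ERRFI1 (-0.99), AREG (-0.989) and EREG (-0.98). These coefficients are a description over 9 libraries that fall into 3 groups and share their scaling. They also include ADP-heptose replicate 3, where TGFA and EGFR were both below replicates 1 and 2 (ratios of 0.802 and 0.598).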

How the data were processed

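The deposited table holds raw counts per gene and library, which the authors made by aligning poly(A) reads from an Illumina NovaSeq with HISAT2 and counting them with featureCounts. Versions, genome build, annotation, strandedness and the treatment of multimapping reads are not given in the sources used here. Of 62972 lines, 62710 gene identifiers were distinct, and 232 listed more than once were used once. These counts entered edgeR 4.0.16 (R 4.3.3, with filterByExpr, TMM and the robust quasi-likelihood F test) for all 9 libraries together. The procedure was tested on simulated counts with no outlying library and no trend with exon length. That test therefore does not cover a library such as ADP-heptose replicate 3. The study's own test of each stimulus against non-stimulated cells was DESeq2 with a 2-fold limit, and it compared the 3 groups together with EBSeq. DESeq2 1.42.0, other scalings and filters, 6 libraries, the replicate block, a 2-fold limit and leaving out each library were alternatives, with exon length offsets (splines with 4 degrees of freedom) added after seeing the data. Normalized counts use effective library sizes. Exon lengths and positions come from GENCODE 29 (GRCh38), matched by Ensembl identifier, and 96.3% of the genes tested had a length. Promoters come from RefSeq (GRCh38.p14), and all 10 members matched by symbol. P-values rest on an estimate of the spread per gene that all 9 libraries share, with 3 per group. Those of flagellin against non-stimulated cells therefore also carry the spread of the ADP-heptose libraries, replicate 3 included. At these depths only HBEGF, of the 10, had fewer than 1000 counts in every library. Named were all members, pathway genes called with at least a 1.5-fold change, the ERBB receptors, and the 3 genes most like each of 2 members. Members and lists were chosen with earlier results of these data known. Figures used matplotlib 3.10.9.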

Additional observations from a re-analysis of the deposited data

How the results depend on the processing

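The 6 calls with ADP-heptose against non-stimulated cells (AREG, EREG, HBEGF, EGFR, ERRFI1, SPRY2) kept their direction and an adjusted p under 0.05 in all 17 alternatives that gave a log2 value, and so did the 5 calls against flagellin. Of 510 such values for the 10 transcripts, 476 kept side and direction, 15 newly passed the threshold, and 19 changed sign, all of them values that were not called. The sign changes with library totals were SPRED1 at -0.12 (ADP-heptose) and -0.085 (ADP-heptose against flagellin) and SPRY4 at -0.0054 (flagellin). When single libraries were left out, SPRED1 ranged from -0.069 to 0.14 with ADP-heptose, -0.047 to 0.16 against flagellin and -0.062 to 0.0036 with flagellin, and SPRED2 from -0.28 to 0.039, -0.27 to 0.048 and -0.044 to 0.033 in the same order. SPRY4 ranged from -0.026 to 0.043 and SPRY2 from -0.057 to 0.0040 with flagellin. Library totals moved the median of all genes to -0.13 with ADP-heptose, and 917 genes were then higher and 1886 lower, against 1302 and 770.

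Of the members, the 2-fold limit left 3 higher and 0 lower with ADP-heptose and 0 lower against flagellin. The fit of 6 libraries called 1 (EGFR) higher with flagellin, and leaving out single libraries gave 0 to 1 there and 4 to 8 higher against flagellin, the 8 without ADP-heptose replicate 3. TGFA passed with ADP-heptose also in DESeq2 (0.0366) and without a filter (0.0215), SPRY4 without a filter (0.0273), and EGFR passed against flagellin in DESeq2 (0.0125), without a filter (2.37e-08) and with length offsets (0.00169).

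Pathway genes called higher with flagellin (1) were 0 with library totals, length offsets and the 2-fold limit, and 0 to 1 when single libraries were left out. Those lower with ADP-heptose (5) were 3 in 6 libraries, 2 with the 2-fold limit and 3 to 5 without single libraries, and the 8 higher were 5 with the 2-fold limit. Against flagellin the 8 higher were 5 with the 2-fold limit and 7 to 13 without single libraries, and the 4 lower were 2 in 6 libraries, 2 with the 2-fold limit and 2 to 5 without single libraries.

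Correlations between groups were -0.379 to 0.222 for same-numbered libraries and -0.378 to 0.43 for different-numbered ones. They use deviations from the means of groups of 3 libraries, which are not free of each other. They therefore cannot decide whether the replicate numbers pair the libraries. With the replicate number as a block, 5 members were higher and 1 lower with ADP-heptose, pathway genes called were 0 higher with flagellin and 2 lower against flagellin, and 1064 and 523 genes in all were higher and lower with ADP-heptose.

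Over all genes, those lower with ADP-heptose (770) were 433 in 6 libraries, 1348 with length offsets (1332 higher), 82 with the 2-fold limit and 392 to 1270 without single libraries, and those higher (1302) were 504 with the 2-fold limit and up to 2018 without ADP-heptose replicate 3. With flagellin the 64 higher were 102 in DESeq2, 114 without a filter, 140 in 6 libraries, 37 with the 2-fold limit and 38 to 165 without single libraries, and the 2 lower were 4 in DESeq2, 10 without a filter, 1 with the block and 0 to 6 without single libraries. Against flagellin the 940 higher were 359 with the 2-fold limit and up to 1798 without ADP-heptose replicate 3, and the 481 lower were 1064 with library totals (708 higher), 787 with length offsets, 269 in 6 libraries, 50 with the 2-fold limit and 233 to 923 without single libraries. The causes were not tested.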
